A study of Mus musculus with 16 samples.

Results

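The pore-forming alpha1 subunits of the voltage-gated calcium channels were followed in 2 regions of the adult mouse brain, frontal cortex (FC) and cerebellum (Cere), from Upf3b-null animals (Upf3b-KO) and their Ctrl littermates. The 8 genes were Cacna1a, Cacna1b, Cacna1c, Cacna1d, Cacna1e, Cacna1g, Cacna1h and Cacna1i, of 55266 genes with transcripts in the deposited tables. They were taken by name, and all of their transcripts entered. The tables held 107 of the 127 transcripts annotated for these genes, among 142435 transcripts in all, and 89 of the 107 had counts in at least 1 library used. By annotation, 71 of the 107 were protein coding, 16 held a retained intron, 15 came from a coding gene but had no defined reading frame, and 5 were of the nonsense-mediated decay (NMD) type. The groups were Ctrl frontal cortex, Upf3b-KO frontal cortex, Ctrl cerebellum and Upf3b-KO cerebellum, with 4 libraries deposited for each. Upf3b encodes an adaptor protein of NMD, which removes mRNAs with a premature stop codon along with some normal ones, and no Cre or cell type restriction was named for the null allele. Bulk RNA was measured, so fewer cells of a type and less RNA per cell cannot be told apart.

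A voltage-gated calcium channel opens when the membrane is depolarized and lets calcium into the cell. The alpha1 subunit forms the pore and senses the voltage. In channels other than the T-type, the auxiliary alpha2delta and beta subunits set how much of it reaches the membrane and how it gates. Cacna1c and Cacna1d encode L-type channels, which sit mostly on cell bodies and dendrites and link activity to transcription. Cacna1a (P/Q-type) and Cacna1b (N-type) trigger transmitter release at nerve terminals, and Cacna1e encodes the R-type channel. Cacna1g, Cacna1h and Cacna1i encode T-type channels, which open close to the resting potential and support burst firing. In cerebellum, Purkinje cells are known for dense P/Q-type and T-type channels, and granule cells use P/Q-type and N-type channels for release.

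The 15 libraries used held 27660078 to 35238677 counts, so that 3 counts amounted to 0.0851 to 0.108 CPM (counts scaled to the total of their library). One library, Cere_Upf3b-KO 1, held 64981 counts and was left out, which leaves n = 3 for Upf3b-KO cerebellum and n = 4 elsewhere. Upf3b itself had a mean of 14.8 CPM in Ctrl frontal cortex against 0.559 in Upf3b-KO, and of 22.7 CPM in Ctrl cerebellum against 0.737. Pcp2, a marker of Purkinje cells, was at 0.0975 CPM in Ctrl frontal cortex and 385 CPM in Ctrl cerebellum. Within a group, the median gene with a mean of 200 or more counts had a variance 1.51 to 1.95 times that of counting alone. The study describes separate null and littermate mice from which both regions were taken, but the labels do not tie a library to a mouse. The fits therefore treated the libraries as independent, also between regions that may share animals, and the p-values measure the spread between these libraries, which may be partly technical. Marker lists of several cell types differed between genotypes and are given beside the results.

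Levels of the members were compared with each other only per length, as counts per kilobase scaled to the same total in each library (TPM). In Ctrl frontal cortex the R-type gene Cacna1e led with a mean of 14.4 TPM, followed by Cacna1h at 8.67, Cacna1b at 7.25, Cacna1c at 5.95, Cacna1d at 5.30, Cacna1g at 5.13, Cacna1a at 4.86 and Cacna1i at 4.12 TPM. Only 2 of the 7 steps in this order, from Cacna1e to Cacna1h and from Cacna1b to Cacna1c, had libraries that did not overlap. In Ctrl cerebellum the order was another: Cacna1g led with 47.6 TPM and Cacna1a came next with 17.3 TPM, followed by Cacna1e at 7.42, Cacna1d at 6.24, Cacna1b at 4.42, Cacna1c at 4.18, Cacna1i at 3.67 and Cacna1h at 0.358 TPM. Here 4 of the 7 steps were free of overlap, those below Cacna1g, Cacna1a, Cacna1d and Cacna1i. Cacna1g alone made up 52.2% ± 1.25 (SD, n = 4) of the summed TPM of the family in Ctrl cerebellum, and Cacna1a a further 18.9%. In Ctrl frontal cortex the largest shares were those of Cacna1e (25.98%) and Cacna1h (15.6%).

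**Figure D1:**
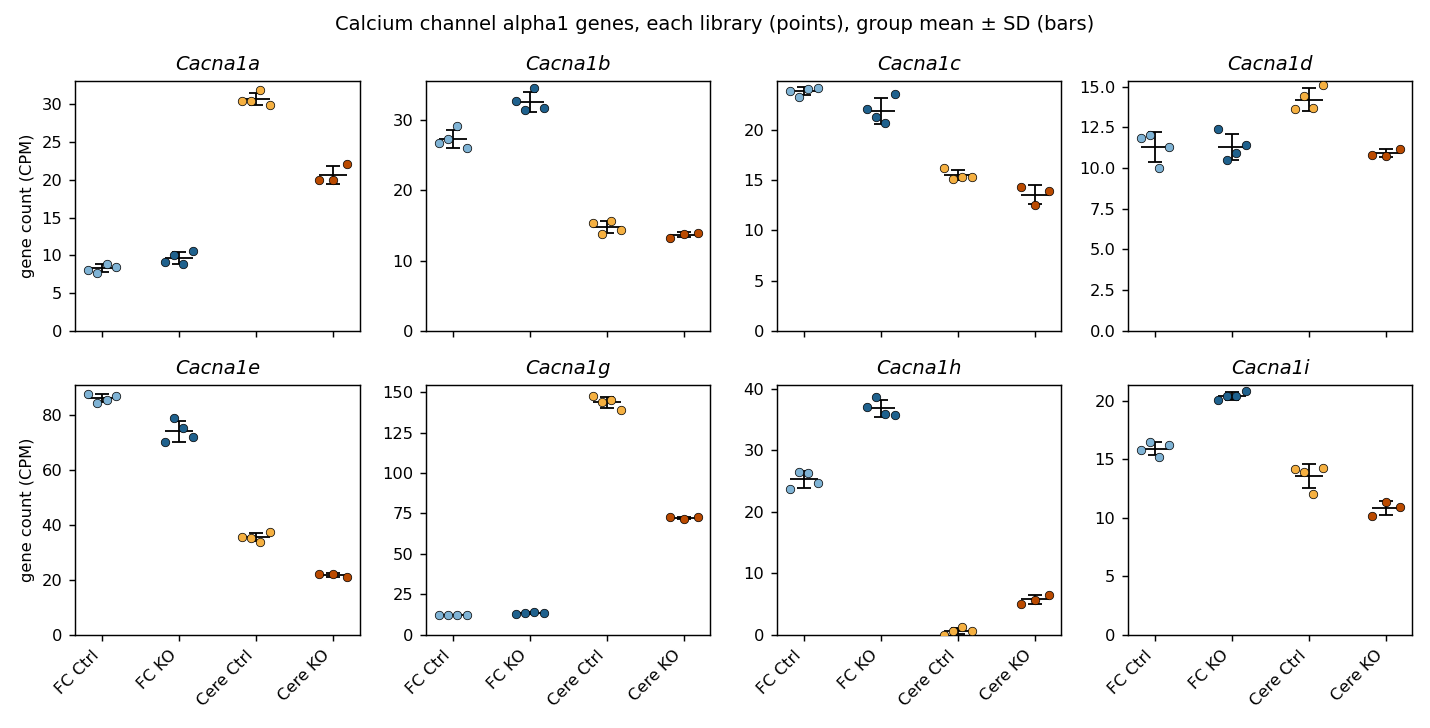
Gene counts in CPM (linear axes starting at 0) of the 8 alpha1 genes, with a point for each of the 15 libraries and bars for the group mean ± SD (n = 4, and n = 3 for Upf3b-KO cerebellum). Cacna1g lies at 139 to 147 CPM in Ctrl cerebellum and 71.5 to 72.7 CPM in Upf3b-KO cerebellum, and Cacna1h rises from at most 1.25 CPM to at least 5.09 CPM.

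The comparison of the regions in Ctrl mice shows how the family differs between cortex and cerebellum. Cacna1g and Cacna1a were higher in cerebellum, by 11.4-fold and 3.57-fold. Cacna1h was 42.2-fold lower in cerebellum, Cacna1e 2.52-fold, Cacna1b 1.92-fold and Cacna1c 1.6-fold lower. By edgeR's quasi-likelihood test with adjustment over all genes, all 8 members passed an adjusted p of 0.05, 3 of them higher and 5 lower in cerebellum, beside 76.5% of all genes tested. By the limits of the study's methods, an adjusted p under 0.01 and over 2-fold, 4 members passed, beside 25.1% of all genes. The median log2 difference was -0.48 over the members and -0.01 over all genes.

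Of the T-type genes, Cacna1g and Cacna1h were the farthest apart of the 8 members and Cacna1i was among the closest. Cacna1g was at 12.3, 12.1, 12.1 and 12.1 CPM in the Ctrl frontal cortex libraries and at 147, 144, 145 and 139 CPM in those of Ctrl cerebellum (log2 difference 3.51, SE 0.035, edgeR adjusted p = 1.39e-25). Cacna1h was at 23.7, 26.4, 26.3 and 24.7 CPM in frontal cortex and at 0.0298, 0.630, 1.25 and 0.651 CPM in cerebellum (log2 difference -5.40, SE 0.23, adjusted p = 1.14e-14). The groups did not overlap for either gene, and the lowest cerebellar value of Cacna1h, in Cere_Ctrl 1, was under the level of 3 counts. Cacna1i, the T-type gene known from thalamus and cortex, was at 15.8, 16.5, 15.2 and 16.2 CPM in frontal cortex and at 14.1, 13.9, 12.0 and 14.2 CPM in cerebellum, a small difference that still passed (log2 difference -0.29, adjusted p = 0.000822).

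Among the release channels, the P/Q-type and N-type genes went opposite ways. Cacna1a was at 8.08, 7.64, 8.90 and 8.47 CPM in Ctrl frontal cortex and at 30.5, 30.5, 31.9 and 29.97 CPM in Ctrl cerebellum (log2 difference 1.84, SE 0.061). Cacna1b was at 26.7, 27.3, 29.1 and 26.04 CPM in frontal cortex and at 15.3, 13.8, 15.6 and 14.4 CPM in cerebellum (log2 difference -0.94, SE 0.058). The R-type gene Cacna1e went with Cacna1b: its libraries were at 87.4, 84.3, 85.4 and 86.7 CPM in frontal cortex and at 35.5, 35.3, 33.9 and 37.5 CPM in cerebellum (log2 difference -1.33, SE 0.033). Frontal cortex and cerebellum were without overlap for all 3 genes, and their largest adjusted p was 5.2e-12.

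Of the L-type genes, Cacna1c was at 23.9, 23.2, 24.1 and 24.2 CPM in Ctrl frontal cortex and at 16.2, 15.1, 15.3 and 15.3 CPM in Ctrl cerebellum (log2 difference -0.68, adjusted p = 2.55e-10). Cacna1d was at 11.9, 12.0, 10.03 and 11.3 CPM in frontal cortex and at 13.6, 14.4, 13.7 and 15.1 CPM in cerebellum (log2 difference 0.27, adjusted p = 0.00285). The direction for Cacna1d depended on the transcripts that were summed: with protein-coding transcripts alone the log2 difference was -0.14, with an adjusted p of 0.384. An NMD-type transcript of Cacna1d, described further on, held a mean of 26.3% of the gene's counts in Ctrl cerebellum and 4.9% in Ctrl frontal cortex.

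The 2 regions also used different transcripts of Cacna1g. In Ctrl frontal cortex most counts were on Cacna1g-203, which held a mean of 69.5% of the gene's counts, and in Ctrl cerebellum on Cacna1g-209, with 88.4%. Cacna1g-203 was at 12.0, 7.28, 8.09 and 6.49 CPM in Ctrl frontal cortex and at 0 in all 7 cerebellar libraries. Cacna1g-209 was under 3 counts in all 8 frontal cortex libraries and at 128, 130, 125 and 124 CPM in Ctrl cerebellum, so the regions did not overlap for either transcript. The test of isoform usage, which compares each transcript's change with that of its gene (edgeR's diffSpliceDGE), passed for Cacna1g (adjusted p = 1.33e-15) and Cacna1d, 2 of 7 members with enough tested transcripts, beside 7.15% of all such genes. Only 1 member passed without Cere_Ctrl 1, without Cere_Ctrl 2 or with the replicate block, while the gene-level F test that was planned passed 3. Over the 7 members, 5 of 36 transcripts passed, beside 3.51% of all transcripts tested: Cacna1g-209 used more in cerebellum (adjusted p = 5.27e-16), Cacna1g-203 used less (adjusted p = 6.2e-08), Cacna1g-211 used less (adjusted p = 0.0395), Cacna1d-201 used less (adjusted p = 0.0025) and Cacna1e-208 used more (adjusted p = 0.0397). Cacna1e did not pass as a gene, and Cacna1e-208 was a minor transcript, at 0.314 to 0.391 CPM in Ctrl cerebellum and 0 to 0.301 CPM in Ctrl frontal cortex.

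**Figure D2:**
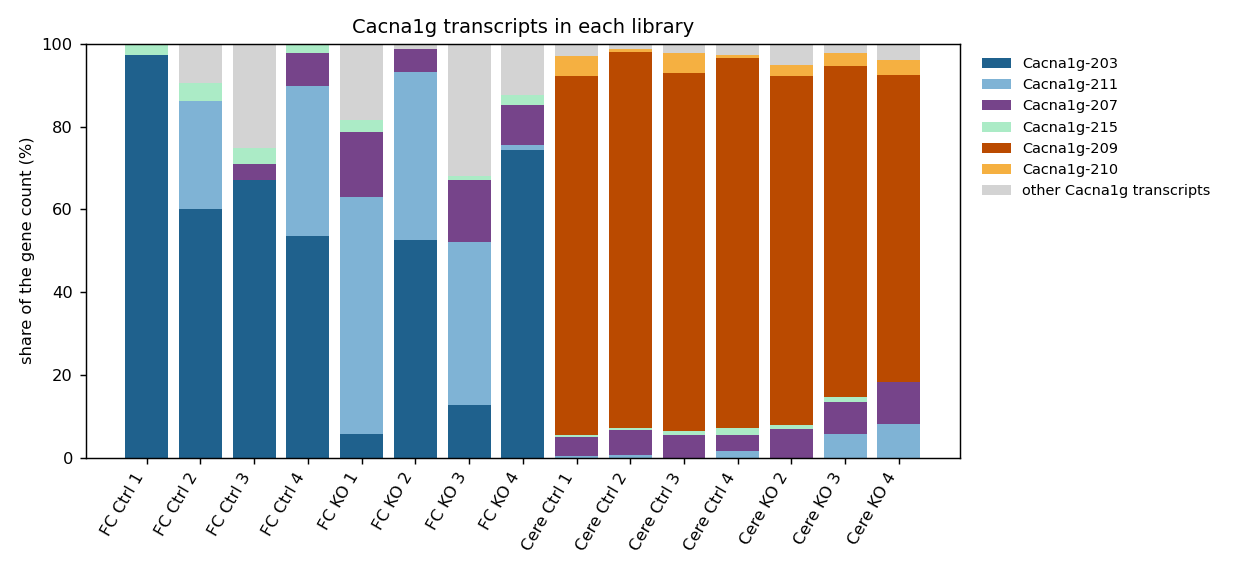
Share of the Cacna1g count held by each transcript (percent, stacked to 100) in each of the 15 libraries. Cacna1g-209 makes up 86.4% to 90.8% of Ctrl cerebellum, and Cacna1g-203 and Cacna1g-211 take changing shares of the frontal cortex libraries.

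Cacna1g-203 and Cacna1g-209 differ by 3 in-frame pieces of coding sequence, shown here because they set these cortical and cerebellar forms apart, while some other transcripts, such as Cacna1g-207, differ in further coding sequence. Exon 14 of Cacna1g-203 (chr11:94330535-94330603, GRCm39, minus strand) has 69 nt or 23 codons and lies in the linker between the second and the third channel repeat. The other pieces lie in the linker between the third and the fourth repeat: a 21-nt extension of exon 25 (chr11:94316590-94316610, 7 codons), which starts at an internal splice donor of that exon, and exon 26 (chr11:94314497-94314550, 54 nt, 18 codons). The sequences are given 5′ to 3′ on the transcribed strand with the piece in capitals and 15 bases of the neighbouring exons in lower case, and both linker pieces join the same next exon.
Cacna1g exon 14: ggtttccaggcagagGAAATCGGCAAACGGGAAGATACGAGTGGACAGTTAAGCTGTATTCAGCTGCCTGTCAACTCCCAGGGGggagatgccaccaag
Cacna1g exon 25 extension: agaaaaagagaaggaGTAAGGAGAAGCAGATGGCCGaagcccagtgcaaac
Cacna1g exon 26: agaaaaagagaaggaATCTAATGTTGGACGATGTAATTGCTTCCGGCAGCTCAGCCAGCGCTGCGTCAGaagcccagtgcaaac

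Each piece was read as its share of the counts of the 11 protein-coding Cacna1g transcripts that span it, as a description chosen after the values were seen and without a test. Exon 14 was in 100%, 91.0%, 100% and 100% of these counts in Ctrl frontal cortex and in 5.04%, 6.75%, 5.59% and 5.50% in Ctrl cerebellum. Exon 26 was in 100%, 72.5%, 100% and 62.7% in frontal cortex and in 7.57%, 7.29%, 7.72% and 6.66% in cerebellum. Both pieces were thus in most cortical and few cerebellar counts, with no overlap. The 21-nt extension went the other way, with 0%, 27.5%, 24.5% and 37.3% in frontal cortex and 89.0%, 92.5%, 87.2% and 92.5% in cerebellum. In Upf3b-KO frontal cortex the shares spread widely between libraries: exon 26 was in 29.5%, 58.9%, 51.1% and 98.8%, and the extension in 58.9%, 41.1%, 57.6% and 13.6%. Upf3b-KO and Ctrl frontal cortex overlapped for all 3 pieces. In Upf3b-KO cerebellum exon 14 was in 6.91%, 13.9% and 18.6% and exon 26 in 11.9%, 9.77% and 13.6%, each above the Ctrl libraries, and the extension in 90.4%, 87.7% and 84.5%, which overlapped with Ctrl.

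**Figure D3:**
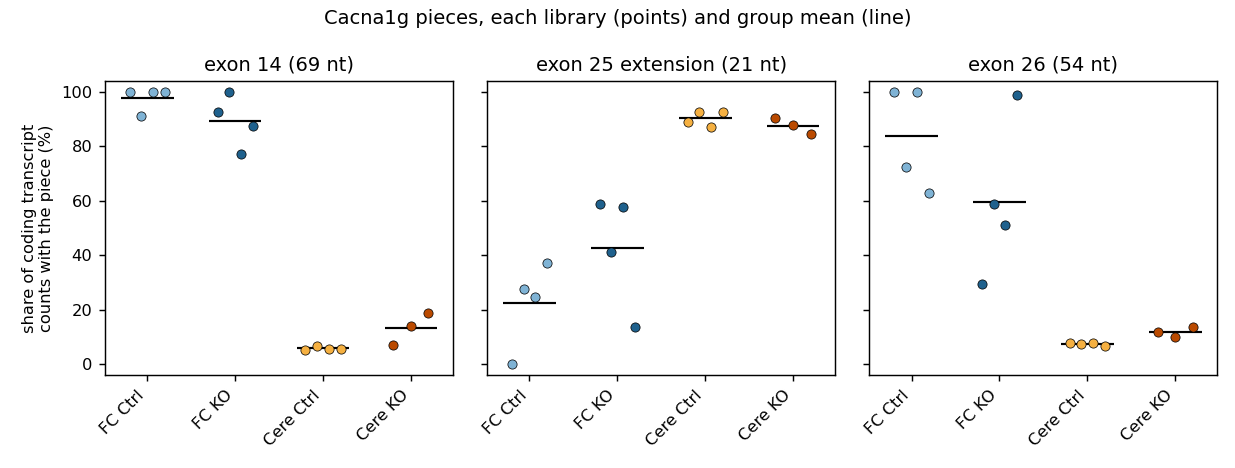
Share of the counts of protein-coding Cacna1g transcripts that carry each of the 3 alternative pieces (percent), with a point for each library and a line at the group mean. Exon 14 and exon 26 are in most counts of Ctrl frontal cortex (means 97.7% and 83.8%) and few of Ctrl cerebellum (5.72% and 7.31%), and the exon 25 extension is in 22.3% and 90.3%.

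Cacna1d-201, the other transcript used less in cerebellum, was at 3.31, 1.38, 1.58 and 3.75 CPM in Ctrl frontal cortex and at 0 in every cerebellar library. It carries exon 10 of 84 nt (chr14:29858998-29859081, GRCm39, minus strand), and exon 22 of 60 nt (chr14:29829610-29829669), 1 of a mutually exclusive pair. Both are shown with the exon in capitals, because no cerebellar count was placed on a coding transcript that holds either.
Cacna1d exon 10: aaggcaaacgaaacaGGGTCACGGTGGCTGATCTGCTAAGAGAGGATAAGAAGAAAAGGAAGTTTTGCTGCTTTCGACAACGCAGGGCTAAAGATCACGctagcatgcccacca
Cacna1d exon 22: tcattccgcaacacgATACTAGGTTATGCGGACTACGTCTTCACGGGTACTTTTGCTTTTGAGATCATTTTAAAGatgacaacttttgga
Exon 10 was in 52.9%, 19.8%, 34.1% and 63.7% of the spanning coding counts in Ctrl frontal cortex and in 10.6%, 4.30%, 22.7% and 22.5% in Upf3b-KO frontal cortex, which overlapped. Exon 22 had the same shares but for 33.1% in FC_Ctrl 3, and Cacna1d-201 is the 1 coding transcript that holds it. These shares rest on few counts and are a description without a test.

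In cerebellum, loss of Upf3b went with lower counts of most alpha1 genes and a higher count of 1. Cacna1g fell 2.06-fold, Cacna1e 1.69-fold, Cacna1a 1.54-fold, Cacna1d 1.35-fold, Cacna1i 1.29-fold and Cacna1c 1.18-fold, and Cacna1h rose 8.94-fold. Of the 8 members, 7 passed an adjusted p of 0.05 in edgeR, beside 64.4% of all genes: 6 were lower, where 31.3% of all genes were, and 1 was higher, where 33.1% were. By the study's limits 2 passed, Cacna1g and Cacna1h, beside 13.2% of all genes. The median log2 change was -0.40 over the members and 0.01 over all genes. The family as a whole summed to a mean of 91.1 TPM in Ctrl cerebellum and 53.9 TPM in Upf3b-KO cerebellum, and the share of Cacna1g in it was 52.2% ± 1.25 (SD, n = 4) and 42.7% ± 2.67 (SD, n = 3).

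Among the T-type genes, Cacna1g was at 147, 144, 145 and 139 CPM in Ctrl cerebellum and at 72.7, 71.5 and 72.6 CPM in Upf3b-KO cerebellum (log2 change -1.04, SE 0.027, edgeR adjusted p = 9.79e-17). Cacna1h was at 0.0298, 0.630, 1.25 and 0.651 CPM in Ctrl and at 5.09, 5.73 and 6.55 CPM in Upf3b-KO (log2 change 3.16, SE 0.37, adjusted p = 3.92e-07). Both genes were free of overlap, and Cacna1h still had the lowest mean TPM of the family in Upf3b-KO cerebellum, 2.07, though with protein-coding transcripts alone Cacna1d was lower. Cacna1i was at 14.1, 13.9, 12.0 and 14.2 CPM in Ctrl and at 10.2, 11.4 and 10.9 CPM in Upf3b-KO, below every Ctrl library (log2 change -0.37, SE 0.084, adjusted p = 0.000759).

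Of the release channels, Cacna1a was at 30.5, 30.5, 31.9 and 29.97 CPM in Ctrl cerebellum and at 19.9, 19.9 and 22.1 CPM in Upf3b-KO (log2 change -0.62, SE 0.053, adjusted p = 5.07e-09). Cacna1e was at 35.5, 35.3, 33.9 and 37.5 CPM in Ctrl and at 22.2, 22.1 and 20.9 CPM in Upf3b-KO (log2 change -0.76, SE 0.049, adjusted p = 9.94e-11). Neither gene overlapped between genotypes. The N-type gene Cacna1b was at 15.3, 13.8, 15.6 and 14.4 CPM in Ctrl and at 13.3, 13.8 and 13.9 CPM in Upf3b-KO, and the groups overlapped (log2 change -0.16, SE 0.072, adjusted p = 0.0553). It did pass when all 15 libraries shared 1 fit (log2 change -0.18), when protein-coding transcripts alone were summed (-0.20) and without Cere_Ctrl 2 (-0.20).

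Both L-type genes were lower. Cacna1c was at 16.2, 15.1, 15.3 and 15.3 CPM in Ctrl cerebellum and at 14.3, 12.5 and 13.9 CPM in Upf3b-KO (log2 change -0.24, SE 0.072, adjusted p = 0.00637). Cacna1d was at 13.6, 14.4, 13.7 and 15.1 CPM in Ctrl and at 10.8, 10.8 and 11.2 CPM in Upf3b-KO (log2 change -0.43, SE 0.076, adjusted p = 6.9e-05). Neither gene overlapped between genotypes, but the call for Cacna1d was lost when protein-coding transcripts alone were summed (log2 change -0.13, adjusted p = 0.454).

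Cell type markers moved with these changes in cerebellum, and their part in the results was not tested. The 7 Purkinje cell markers summed to 7328 to 7464 CPM in Ctrl and 2776 to 2792 CPM in Upf3b-KO libraries, and 7 of 7 were lower (median log2 change -1.44). The 7 granule cell markers summed to 4213 to 4250 CPM in Ctrl and 2299 to 2315 CPM in Upf3b-KO, and 7 of 7 were lower (median -1.01). Beside the rise of Cacna1h, the 3 glycinergic markers summed to 99.5 to 102 CPM in Ctrl and 284 to 289 CPM in Upf3b-KO, and 2 of 3 were higher, with Slc6a5, the glycine transporter of glycinergic terminals, at a log2 change of 2.28 and the glycine receptor gene Glra1 at 6.04, while Slc32a1 was at -0.08 and did not pass. Of the 7 markers of excitatory neurons in cerebellar nuclei, brainstem and thalamus, 2 were higher and 4 lower, with Slc17a6, a vesicular glutamate transporter, at 4.004 and Spp1 at 2.05, while their sum was 1225 to 1252 CPM in Ctrl and 935 to 952 CPM in Upf3b-KO. The 6 choroid plexus markers summed to 25.04 to 28.8 CPM in Ctrl and 1369 to 1391 CPM in Upf3b-KO, and 6 of 6 were higher (median 6.64), while 5 of 5 oligodendrocyte markers were higher (median log2 change 1.11). Of the other lists, 4 of 5 microglial markers were higher, as were 3 of 4 male germ cell markers (1 lower, with the sum at 27.8 to 30.04 CPM in Ctrl and 15.7 to 15.9 CPM in Upf3b-KO). Of the 8 striatal markers 5 were higher, with Drd2 at 6.17 and Tac1 at 6.42, and Ppp1r1b was lower, at -0.99, while their sum was 369 to 380.2 CPM in Ctrl and 336 to 346 CPM in Upf3b-KO. Of the 6 cortical interneuron markers, Sst (5.24) and Vip (6.29) were higher and Gad1 (-0.64), Gad2 (-0.27), Pvalb (-0.63) and Lhx6 (-1.496) lower, and their sum was 2003 to 2017 CPM in Ctrl and 1425 to 1437 CPM in Upf3b-KO.

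In frontal cortex Cacna1h rose 1.38-fold, Cacna1i 1.22-fold and Cacna1b 1.13-fold, while Cacna1e fell 1.23-fold and Cacna1c 1.15-fold. Of the 8 members, 5 passed in edgeR, beside 53.3% of all genes: 3 were higher, where 28.0% of all genes were, and 2 were lower, where 25.3% were. None passed the study's limits, beside 10.2% of all genes. The share of members that passed was thus near the background. The median log2 change was 0.11 over the members and 0.00 over all genes. The family summed to a mean of 55.7 TPM in Ctrl and 59.4 TPM in Upf3b-KO frontal cortex, and Cacna1e and Cacna1h had nearly the same level in Upf3b-KO, 12.3 TPM each, with libraries that overlapped.

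**Figure D4:**
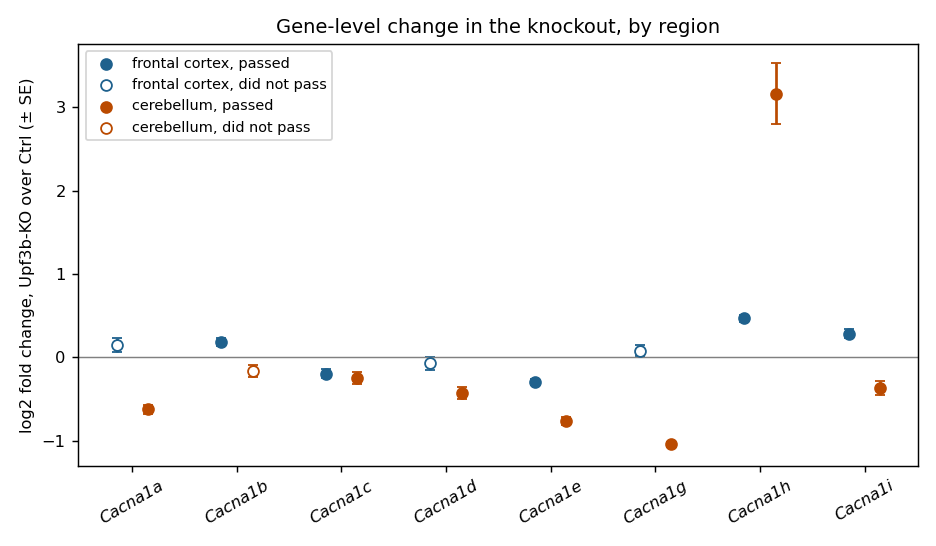
Gene-level log2 fold change of Upf3b-KO over Ctrl (± SE from the edgeR fit) for each alpha1 gene in frontal cortex (blue) and cerebellum (orange), with filled points for an adjusted p under 0.05. The frontal cortex values lie between -0.29 and 0.47, and in cerebellum Cacna1h stands at 3.16 and Cacna1g at -1.04.

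Of the T-type genes, Cacna1h was at 23.7, 26.4, 26.3 and 24.7 CPM in Ctrl frontal cortex and at 37.1, 38.7, 35.8 and 35.7 CPM in Upf3b-KO (log2 change 0.47, SE 0.047, edgeR adjusted p = 2.64e-08). Cacna1i was at 15.8, 16.5, 15.2 and 16.2 CPM in Ctrl and at 20.01, 20.4, 20.4 and 20.8 CPM in Upf3b-KO (log2 change 0.28, SE 0.055, adjusted p = 0.000156). Every Upf3b-KO library lay above every Ctrl library for both genes. Cacna1g was at 12.3, 12.1, 12.1 and 12.1 CPM in Ctrl and at 12.8, 13.3, 14.1 and 13.8 CPM in Upf3b-KO. These values did not overlap in CPM, but with the scaling factors of the fit, which set Upf3b-KO lower by 0.08 on the log2 scale relative to CPM, the change was 0.08 (SE 0.066, adjusted p = 0.354).

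Of the R-type and release channels, Cacna1e was at 87.4, 84.3, 85.4 and 86.7 CPM in Ctrl frontal cortex and at 70.0, 78.8, 75.1 and 71.9 CPM in Upf3b-KO, without overlap (log2 change -0.29, SE 0.033, adjusted p = 1.23e-07). Cacna1b was at 26.7, 27.3, 29.1 and 26.04 CPM in Ctrl and at 32.7, 31.5, 34.5 and 31.7 CPM in Upf3b-KO, also without overlap (log2 change 0.18, SE 0.047, adjusted p = 0.00292). Cacna1a did not pass, at 8.08, 7.64, 8.90 and 8.47 CPM in Ctrl and 9.11, 10.1, 8.90 and 10.6 CPM in Upf3b-KO (log2 change 0.15, SE 0.088, adjusted p = 0.162). Its lowest Upf3b-KO library met its highest Ctrl library.

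Of the L-type genes, Cacna1c was at 23.9, 23.2, 24.1 and 24.2 CPM in Ctrl frontal cortex and at 22.1, 21.3, 20.7 and 23.6 CPM in Upf3b-KO, where the highest library lay within the Ctrl range (log2 change -0.20, SE 0.052, adjusted p = 0.00304). With protein-coding transcripts alone its adjusted p was 0.0542. Cacna1d was at 11.9, 12.0, 10.03 and 11.3 CPM in Ctrl and at 12.4, 10.5, 10.9 and 11.4 CPM in Upf3b-KO, and the groups overlapped (log2 change -0.07, SE 0.080, adjusted p = 0.468).

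Markers of other cells also differed in frontal cortex, and their part in the results was not tested. The 8 markers of striatal medium spiny neurons summed to 162 to 174 CPM in Ctrl and 782 to 795 CPM in Upf3b-KO, and 8 of 8 were higher (median log2 change 2.02). The 6 choroid plexus markers summed to 20.8 to 22.1 CPM in Ctrl and 2156 to 2209 CPM in Upf3b-KO, and 6 of 6 were higher (median 5.41). Of the 7 markers of cortical excitatory neurons, 2 were higher and 4 lower, with a median of -0.17 and values from -1.06 (Fezf2) to 0.28 (Cux2). Of the 6 cortical interneuron markers, Pvalb (0.32) and Gad2 (0.05) were higher, Sst (-0.65), Lhx6 (-0.34) and Vip (-0.29) lower, and Gad1 did not pass. The 4 endothelial markers had 2 higher and 0 lower, with sums of 82.8 to 88.1 CPM in Ctrl and 98.1 to 101 CPM in Upf3b-KO. In addition, 5 of 5 male germ cell markers were higher, with sums of 13.7 to 15.6 CPM in Ctrl and 96.6 to 103 CPM in Upf3b-KO (median 2.74), 5 of 5 oligodendrocyte markers were higher (median 0.39) and 5 of 5 astrocyte markers were lower (median -0.37).

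The difference between the regions in the response to Upf3b loss was tested as an interaction over the 15 libraries, with no term for the mouse. All members but Cacna1c passed, 7 of 8, beside 48.0% of all genes, and 2 passed the study's limits, beside 9.40%. The largest were Cacna1h, whose log2 change was higher in cerebellum than in frontal cortex by 2.70 (SE 0.28, edgeR adjusted p = 1.14e-08), and Cacna1g, with an interaction of -1.13 (SE 0.053, adjusted p = 1.79e-15). Cacna1a (-0.78), Cacna1i (-0.66), Cacna1e (-0.48), Cacna1d (-0.36) and Cacna1b (-0.35) also passed with a lower change in cerebellum, and Cacna1c was at -0.06 (adjusted p = 0.619). The call for Cacna1d was lost with protein-coding transcripts alone (interaction -0.20, edgeR adjusted p = 0.428). By the test of each region, Cacna1h was the member higher in Upf3b-KO in both, and Cacna1c and Cacna1e were lower in both. In the Upf3b-KO mice, 7 of 8 members still differed between cerebellum and frontal cortex, beside 71.0% of all genes, and 5 by the study's limits, beside 22.7%: Cacna1g was 5.29-fold and Cacna1a 2.11-fold higher in cerebellum, and Cacna1h was 6.39-fold, Cacna1e 3.44-fold and Cacna1b 2.41-fold lower. The comparisons within the genotypes share their libraries with those within the regions.

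At the level of single transcripts the counts of a gene are split among forms that share most exons, and the split varied between libraries. Cacna1a-201 and Cacna1a-211, both protein coding, were at 13.0 and 0 CPM in Cere_Ctrl 1 and at 1.55 and 17.9 CPM in Cere_Ctrl 2, although the gene summed to 30.5 CPM in both. For Cacna1e, Cacna1i and Cacna1b a single protein-coding transcript held most of the counts in all 4 groups: Cacna1e-202 had mean shares of 94.0% to 98.6%, Cacna1i-202 of 98.9% to 99.7% and Cacna1b-203 of 76.2% to 86.1%. Cacna1c-207 held 68.5% to 88.4%. The second form of Cacna1b, Cacna1b-204, held 10.3% to 16.4%, and that of Cacna1c, Cacna1c-216, 6.37% to 14.6%. Of the further coding forms of Cacna1a, Cacna1a-213 had mean shares of 9.78% in Ctrl frontal cortex and 29.5% in Ctrl cerebellum, and Cacna1a-212 of 20.3% and 3.74%. For Cacna1h, Cacna1h-204 held 95.6% of the gene's counts in Ctrl frontal cortex and 93.2% in Upf3b-KO cerebellum, while in Ctrl cerebellum its few counts fell on other transcripts in each library. There Cacna1h-202 held 97.1% in Cere_Ctrl 1, Cacna1h-201 held 99.0% in Cere_Ctrl 2 and 81.5% in Cere_Ctrl 4, and Cacna1h-204 held 82.3% in Cere_Ctrl 3, so no mean share is given. Cacna1d was the most divided, with no transcript above a mean of 28.8% in any group, and retained-intron transcripts, Cacna1d-212 foremost, held 39.0%, 33.3%, 33.1% and 28.0% of its counts in Ctrl frontal cortex, Upf3b-KO frontal cortex, Ctrl cerebellum and Upf3b-KO cerebellum. Its coding forms Cacna1d-202, Cacna1d-209, Cacna1d-214 and Cacna1d-218 reached mean shares of 19.3%, 12.96%, 13.6% and 13.0% in the group where each was highest.

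Of the 30 member transcripts tested in frontal cortex, 4 passed, beside 16.4% of all transcripts. Cacna1h-204 was at 22.3, 25.6, 25.2 and 23.6 CPM in Ctrl and at 36.4, 37.1, 34.8 and 34.2 CPM in Upf3b-KO (log2 change 0.49, edgeR adjusted p = 0.000612). Cacna1e-202 (log2 change -0.28, adjusted p = 0.00214) and Cacna1i-202 (0.29, adjusted p = 0.00565) likewise followed their genes. Cacna1c-223, a form without a defined reading frame, was at 1.64, 1.91, 0.854 and 1.06 CPM in Ctrl and at 0.239, 0.280, 0.738 and 0.434 CPM in Upf3b-KO, each below every Ctrl library (log2 change -1.75, SE 0.45, adjusted p = 0.034). Its call was lost when FC_Ctrl 1, 2 or 4 or FC_Upf3b-KO 1, 2 or 4 was left out. Cacna1d-201 was lower in value in Upf3b-KO, 0.695, 0.265, 1.34 and 1.70 CPM, but did not pass (log2 change -1.39, adjusted p = 0.181).

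Of the 35 member transcripts tested in cerebellum, 5 passed and all were lower, beside 22.6% of all transcripts in either direction. Cacna1g-209 was at 128, 130, 125 and 124 CPM in Ctrl and at 61.3, 57.2 and 53.9 CPM in Upf3b-KO (log2 change -1.15, SE 0.045, edgeR adjusted p = 4.31e-06). Cacna1e-202 was at 31.97 to 34.9 CPM in Ctrl and 19.8 to 20.97 CPM in Upf3b-KO (log2 change -0.72, adjusted p = 6.51e-05). Neither transcript overlapped between genotypes. Cacna1i-202 (log2 change -0.34, adjusted p = 0.045) and 2 short forms of Cacna1a came closer to the limit. Cacna1a-204, without a defined reading frame, was at 1.93, 2.94, 1.87 and 1.88 CPM in Ctrl and 1.14, 0.514 and 0.868 CPM in Upf3b-KO (log2 change -1.35, adjusted p = 0.0366). Cacna1a-206, with a retained intron, was at 1.19, 1.68, 1.29 and 1.83 CPM in Ctrl and 0.317, 0.619 and 0.118 CPM in Upf3b-KO (log2 change -2.07, adjusted p = 0.0392). Each of these 3 calls was lost when any of several single libraries was left out, Cere_Ctrl 1, 2 and 4 and Cere_Upf3b-KO 4 among them.

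In Upf3b-KO cerebellum the counts of Cacna1h were placed mostly on the coding transcript Cacna1h-204. The few Ctrl counts were mostly on the coding forms Cacna1h-201 or Cacna1h-202, except in Cere_Ctrl 3. The change of this transcript therefore depends on how these few counts were split. Cacna1h-204 was at 0.000868, 0, 1.03 and 0 CPM in Ctrl and at 4.69, 5.31 and 6.22 CPM in Upf3b-KO, without overlap, and 3 of the 4 Ctrl libraries were under 3 counts. The transcript did not pass (log2 change 4.39, SE 1.60, adjusted p = 0.10), and it passed when all 15 libraries shared 1 fit and without Cere_Ctrl 3, the Ctrl library that held counts of it. In the interaction, 3 of 44 member transcripts passed, beside 13.3% of all transcripts: Cacna1h-204 (3.92, adjusted p = 0.0192), Cacna1i-202 (-0.62, adjusted p = 0.000326) and Cacna1e-202 (-0.44, adjusted p = 8e-05).

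The isoform usage test detected no change between genotypes in which transcripts of these genes were used. In frontal cortex 0 of 7 members with enough transcripts passed the isoform usage test of edgeR, with 0 of 29 transcripts at an unadjusted p under 0.05, beside 2.43% of all genes that passed. In cerebellum 0 of 6 passed, with 1 of 33 transcripts, Cacna1g-211, at an unadjusted p under 0.05, beside 3.45% of all genes. At these backgrounds, counts of 0 among so few members do not set them apart from other genes. The planned gene-level F test of the same tool and limma's diffSplice also passed 0 members in both regions. Without FC_Ctrl 2, however, 1 member passed in frontal cortex. Cacna1g-211 was at 0.496, 0.945, 0 and 2.07 CPM in Ctrl cerebellum and at 0, 4.08 and 5.83 CPM in Upf3b-KO, and the groups overlapped. The shares of Cacna1g-209 and Cacna1g-207 in cerebellum did not overlap between genotypes, although neither passed the test. Cacna1g-209 held 86.4% to 90.8% of the gene's counts in Ctrl and 74.2% to 84.3% in Upf3b-KO. For Cacna1g-207 these shares were 3.91% to 6.05% and 6.82% to 10.2%.

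The NMD-type transcripts, those annotated as open to the pathway that Upf3b serves, were few among the alpha1 genes. They made up 0.310% and 0.248% of the member counts in Ctrl and Upf3b-KO frontal cortex, and 1.42% and 1.59% in Ctrl and Upf3b-KO cerebellum. Of the 5, Cacna1i-205 had no counts, Cacna1b-206, Cacna1d-210 and Cacna1h-207 stayed under 1 CPM in every library, and Cacna1d-208 alone went above. Cacna1d-208 has 48 exons and an annotated stop codon in exon 11, with 37 exon junctions after it, the last of them 5694 nt downstream. A junction 50 nt or more after the stop is one of the features that the study's methods scored, beside upstream reading frames and the length of the 3′ end. Cacna1d-208 was at 3.55, 3.50, 4.82 and 2.99 CPM in Ctrl cerebellum and at 1.69, 2.16 and 3.25 CPM in Upf3b-KO, and the highest Upf3b-KO library lay within the Ctrl range. Its log2 change in cerebellum was -0.65 (SE 0.30) and did not pass (edgeR adjusted p = 0.179). In frontal cortex it was at 0.606, 0, 0 and 1.62 CPM in Ctrl and at 0.467, 1.22, 0 and 0 CPM in Upf3b-KO, which overlapped. Cacna1b-206 was at 0.0987, 0, 0 and 0 CPM in Ctrl cerebellum and at 0, 0.337 and 0.680 CPM in Upf3b-KO, which overlapped. Cacna1d-208 was the 1 NMD-type transcript that passed the low-count filter between genotypes, so the others were not tested there.

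The auxiliary subunits and partners of the channels were taken as lists of genes by role. Of all genes, 28.0% were higher and 25.3% lower in frontal cortex, and 33.1% were higher and 31.3% lower in cerebellum. The counts of every list below stand beside these shares, the lists are short, and no list was tested as a set. The beta subunits bind alpha1 inside the cell in channels other than the T-type. They had 2 of 4 higher and none lower in frontal cortex (median log2 change 0.08), and 1 higher and 2 lower in cerebellum (median -0.12). Cacnb4, which has the highest count of the 4 in cerebellum, was at a mean of 478 CPM in Ctrl and 284 CPM in Upf3b-KO (log2 change -0.80), Cacnb1 rose by 0.88 from 17.1 to 32.6 CPM, and Cacnb3 fell by 0.19. In frontal cortex Cacnb4 changed by 0.10 and Cacnb3 by 0.16, and both passed. The alpha2delta subunits had 2 of 4 higher and 1 lower in each region, with medians of 0.25 in frontal cortex and 0.03 in cerebellum. Cacna2d2 went opposite ways, at 0.45 in frontal cortex and -0.80 in cerebellum, where its mean was 124 CPM in Ctrl and 73.4 CPM in Upf3b-KO. Cacna2d1 also did, at -0.29 and 0.28, and Cacna2d3 was higher in both, by 0.09 and 0.39.

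Of the gamma subunits and the related regulators of AMPA receptors, 1 of 7 was higher and 1 lower in frontal cortex (median -0.06), and 1 of 6 was higher and 3 lower in cerebellum (median -0.28). Cacng5 was at 0.52 in frontal cortex and -1.33 in cerebellum, Cacng2 at -0.79 and Cacng7 at -0.63 in cerebellum, and Cacng8 was higher there, by 0.83. Of the other pore-forming genes, Cacna1f was too low to test, Cacna1s, the muscle L-type gene, was at 0.270 CPM in Ctrl and 0.669 CPM in Upf3b-KO frontal cortex (log2 change 1.22), and Nalcn, a sodium leak channel, changed by -0.06 in cerebellum. In this list 1 of 2 was higher in frontal cortex and 1 of 2 lower in cerebellum, with medians of 0.58 and -0.07.

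Of 15 active zone and release proteins that bind or stand close to the presynaptic channels, 5 were higher and 7 lower in frontal cortex (median -0.02). In cerebellum 5 were higher and 9 lower (median -0.10), beside the shares of all genes given above. The scaffold gene Pclo fell in both regions, by 0.44 and 0.66 on the log2 scale, as did Rims4, by 0.52 and 0.84, and the calcium sensor Syt1, by 0.33 and 0.46. Rims3 changed by 0.08 and -0.55. Rimbp2, whose product links channels to the release site, rose by 0.18 and 1.06, and Syt2 by 0.61 in frontal cortex. Stx1a, a membrane fusion protein, went from 0.541 to 6.38 CPM in cerebellum (log2 change 3.51) and changed by -0.06 in frontal cortex.

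The genes that act on calcium after entry moved in both directions. Of 6 calcium release channels, 1 was higher and 2 lower in frontal cortex (median -0.10), and 2 higher and 2 lower in cerebellum (median -0.19). Itpr1, the inositol trisphosphate receptor that is dense in Purkinje cells, was at means of 3893 and 1725 CPM in Ctrl and Upf3b-KO cerebellum (log2 change -1.22) and at 426 and 537 CPM in frontal cortex (0.26). Itpr3 fell by 0.90 and Ryr3 rose by 0.93 in cerebellum. Of 5 calcium-activated potassium channels, 1 was higher and 2 lower in frontal cortex (median -0.17), and 3 higher and 1 lower in cerebellum (median 0.58). Kcnma1, the large-conductance channel, fell by 0.34 and 0.99, while the small-conductance genes Kcnn1 and Kcnn3 rose by 1.27 and 0.58 in cerebellum, and Kcnn4 rose by 1.66 in frontal cortex from 0.166 CPM.

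**Figure D5:**
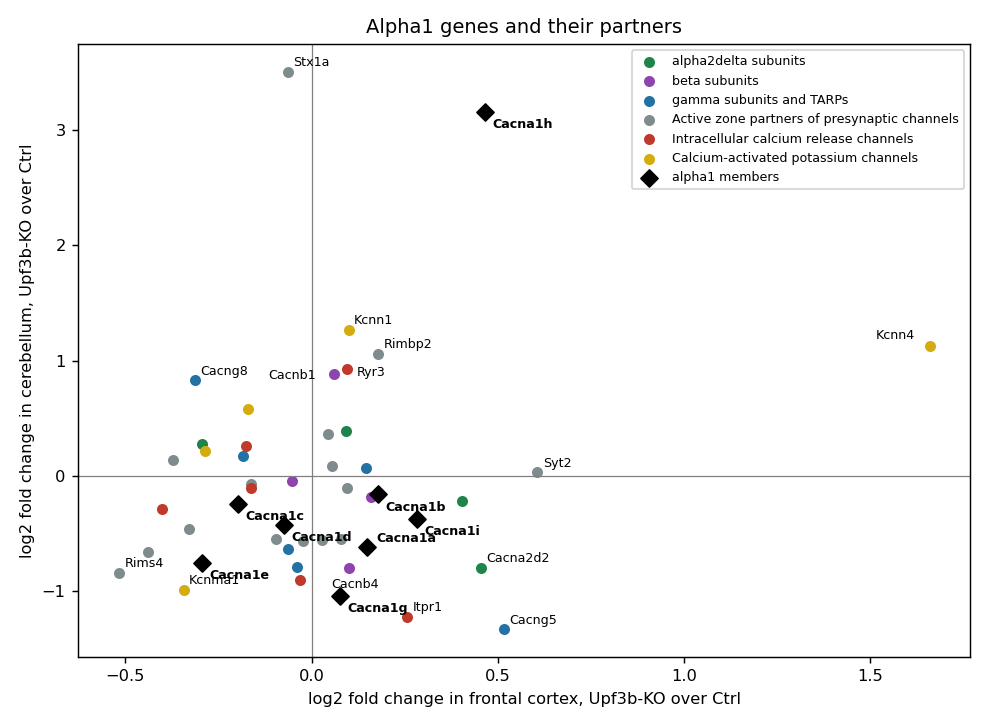
Log2 fold change of Upf3b-KO over Ctrl in frontal cortex (horizontal) and cerebellum (vertical) for the 8 alpha1 genes (diamonds) and the listed partner genes (circles, coloured by list). Most alpha1 genes lie below 0 on the vertical axis, and Cacna1h (0.47, 3.16) lies near Stx1a at the top.

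The genes with the pattern most like each member were taken by Pearson's correlation of log2(CPM + 1) over the 15 libraries among 11973 genes, as a description. The libraries share their 4 groups, so the values mostly reflect the group means. Cacna1g was most like St18 (r = 0.999) and Inpp5a (0.999), the latter an inositol phosphatase, at 570 CPM in Ctrl and 276 CPM in Upf3b-KO cerebellum. Cacna1a was most like Cntn6 (0.997) and Exph5 (0.997), Cacna1b like Tmem198 (0.996) and Arpp21 (0.994), and Cacna1e like Vamp2 (0.998), a vesicle fusion protein, and Nell2 (0.997). Cacna1c was most like Tmem158 (0.988) and Ppp1r12a (0.986), Cacna1i like Mapk4 (0.981) and Tsnax (0.977), and Cacna1d like Elmod1 (0.927), the lowest first value of the 8. Cacna1h was most like Hs3st2 (0.996) and Olfml3 (0.995), and Hs3st2 went from 0.690 to 4.90 CPM in cerebellum.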

How the data were processed

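RNA depleted of ribosomal RNA was made into SMART-Seq v4 PLUS libraries and sequenced as read pairs. Per the labels and the study's methods, the authors aligned the reads to GRCm39 with STAR 2.5.2b and ran RSEM, and they deposited its expected counts for each Ensembl transcript in 1 table per region. Whether strand was used is not given in the sources used here. Of 142435 transcripts, 141102 matched GENCODE vM39 of GRCm39, which gave gene names, types and positions, and sequences were read from its transcripts. No column was left without a sample.

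Expected counts were rounded and summed per gene. edgeR 4.0.16 in R 4.3.3 was fitted on all features passing filterByExpr (minimum count 10, minimum total 15) with TMM scaling, the quasi-likelihood F test and Benjamini-Hochberg adjustment over all features tested; passed means an adjusted p under 0.05. SEs were taken from the fold change and F. Isoform usage used diffSpliceDGE with Simes's combination per gene, chosen after the data were seen in place of the planned gene-level F test, which called too many unchanged genes in simulated data. TPM here is the expected count per kilobase of annotated transcript length, scaled to one total over all transcripts. DESeq2 1.42.0 and limma 3.58.1 served as alternatives, along with other scaling, filters, summed transcripts, libraries and a replicate block.

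The naming rule took the 8 members, transcripts with a mean of at least 10% of their gene in a group, those that passed between genotypes and those of the NMD type that passed the filter, and partner genes past 1.5-fold or among the 3 smallest adjusted p of a list. Cacna1e-208 and the NMD-type transcripts under the filter are outside this rule and were named after their values were seen. The members and lists were chosen with earlier results of these data known. Cere_Upf3b-KO 1 was left out for its depth. Libraries with the same replicate number showed no clear pairing (correlations of deviations -0.032 to 0.063). With 3 or 4 libraries per group and a spread close to that of counting, these correlations cannot exclude shared mice. DEXSeq and IsoformSwitchAnalyzeR, which the study used, were not run. A second gene for Cacna1d in the likeness ranking is not reported here.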

Additional observations from a re-analysis of the deposited data

Results flagged for a closer look

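The response to Upf3b loss differed between cerebellum and frontal cortex, by the interaction term of edgeR, for 7 members and 3 of their transcripts. The differences in log2 change, cerebellum minus frontal cortex, were 2.70 for Cacna1h, -1.13 for Cacna1g, -0.78 for Cacna1a, -0.66 for Cacna1i, -0.48 for Cacna1e, -0.36 for Cacna1d and -0.35 for Cacna1b, and 3.92 for Cacna1h-204, -0.62 for Cacna1i-202 and -0.44 for Cacna1e-202. For Cacna1d the interaction was -0.20 and did not pass with protein-coding transcripts alone.

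A single library stood apart in 3 of 39 groups of 4 libraries examined, where its gap to the nearest other library took up more of the group's range than Dixon's critical value for 4 allows; chance alone gives about 1 in 20 such groups. Cacna1c in Ctrl cerebellum had a gap share of 0.835, with Cere_Ctrl 1 at 16.2 CPM and the others at 15.1 to 15.3 CPM. Cacna1i in Ctrl cerebellum had a gap share of 0.865, with Cere_Ctrl 3 at 12.0 CPM and the others at 13.9 to 14.2 CPM. The share of Cacna1g exon 14 in Ctrl frontal cortex had a gap share of 1, with FC_Ctrl 2 at 91.0% and the others at 100%.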

How the results depend on the processing

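Of the gene-level values of single members, 358 of 360 with 1 library left out and 267 of 296 under other settings kept their direction and side of the threshold; for single transcripts these were 94 of 119 and 55 of 83, and for isoform usage 27 of 40 and 23 of 28. With the study's limits, the members that passed were 0 in frontal cortex, 2 in cerebellum, 4 between regions in Ctrl and 2 in the interaction, and the transcripts 0, 1 and 0 in frontal cortex, cerebellum and the interaction. Member transcripts that passed in frontal cortex went from 4 to 2 with all 15 libraries in 1 fit. In cerebellum they went from 5 to 3 with Cere_Upf3b-KO 1 included and to 2 with no low-count filter, and in the interaction from 3 to 1 with that library and to 5 with DESeq2.

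Leaving out 1 library at a time gave 5 members in frontal cortex, 7 to 8 in cerebellum, 8 between regions in Ctrl, 7 in Upf3b-KO and 7 in the interaction, and 3 to 4, 2 to 4 and 3 to 4 transcripts in frontal cortex, cerebellum and the interaction. Isoform usage gave 0 to 1 members in frontal cortex (1 without FC_Ctrl 2), 0 in cerebellum and 1 to 2 between regions (1 without Cere_Ctrl 1 or 2). The planned gene-level F test, which Simes's combination replaced after simulation, and limma's diffSplice each gave 3 between regions, against 2. With the replicate block, cerebellar transcripts went from 5 to 3 and isoform usage between regions from 2 to 1 members; it changed no other count by over 1.5 times. Whether the replicate numbers tie libraries to the same mouse is not known, so the block is no test of a weaker effect.

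With the length of the most abundant transcript, 6 of 7 steps in the order were free of overlap in Ctrl and 5 in Upf3b-KO frontal cortex, against 2 in each, and with protein-coding transcripts alone 5 in Upf3b-KO. The order itself also changed: with that length 3 or 4 of the 8 members kept their place in each group, and with protein-coding transcripts alone 2 to 5, with Cacna1d last in both frontal cortex groups and in Upf3b-KO cerebellum, and Cacna1h leading in Upf3b-KO frontal cortex. Reversed values were Cacna1d with protein-coding transcripts alone in frontal cortex (0.063 against -0.07) and between regions in Ctrl (-0.14 against 0.27), where the fewer transcripts summed are the change, and the interaction of Cacna1c without Cere_Upf3b-KO 3 (0.0044 against -0.06, and -0.087 to 0.0044 over all libraries left out in turn), whose cause was not tested. At this depth Cacna1h was under 3 counts in 1 Ctrl cerebellum library.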

Other observations

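The sum of the 4 beta subunit genes was 558 to 584 CPM in the Ctrl cerebellum libraries and 383 to 395 CPM in those of Upf3b-KO, without overlap. In frontal cortex the same sum was 521 to 551 CPM in Ctrl and 605 to 615 CPM in Upf3b-KO, also without overlap and in the other direction. The sum of the 8 alpha1 genes was 266 to 273 CPM in Ctrl cerebellum and 168 to 172 CPM in Upf3b-KO cerebellum, and 209.5 to 211 CPM and 216 to 225 CPM in Ctrl and Upf3b-KO frontal cortex. The alpha2delta sum was 197 to 203 CPM in Ctrl and 169 to 176 CPM in Upf3b-KO cerebellum, and overlapped in frontal cortex. These sums were read without a test and in CPM, without the scaling factors of the fit. Relative to CPM, those factors set Upf3b-KO lower by about 0.08 on the log2 scale in frontal cortex and 0.05 in cerebellum. The small difference of the alpha1 sum in frontal cortex can therefore not be read as a rise, and that of the beta subunits there would be smaller.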
